A study of Canis lupus familiaris with 13 samples.

Results

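CIAO2B and CMTM6 are the 2 genes described here, and they were chosen by a measured value, the difference in signal between the hearts of diseased Boxers and those of control mongrels. The members are all probe sets to which the array annotation gives either symbol. They came to 3 of the 23836 probe sets of the array, namely 1602786_at and 1602785_at for CIAO2B and 1592642_at for CMTM6. All 3 passed the filter on low signal and were among the 14302 probe sets tested, so none was set aside, and the 2 genes stand among 5242 with a tested probe set. Because the Boxer minus control difference chose them, it is given for them as a description with no test, and so are the 4 comparisons that share the Boxer or the control arrays with it. The comparison of Dobermans with paced mongrels was tested, because the means it compares share no array with the choice. Its SE and p-value do not stand apart from the choice, since the spread was estimated over all arrays, the Boxers and controls among them.

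RNA of dog heart tissue was measured on Affymetrix canine arrays, with 1 array for each of 13 samples. The controls were 3 mongrels, P1, P4 and P9. Dilated cardiomyopathy, in which the ventricles widen and contract weakly, was the label of 4 Boxers (1 to 4) and of 3 Dobermans (K, L, R). The last group was of 3 mongrels with cardiac pacing, LV01, LV02 and LV04, and rapid pacing is an experimental way to bring on heart failure. The labels give no age, sex, drug, heart chamber, pacing rate or pacing time, and name no genotype beyond the breed. Every diseased dog was of a breed that no control dog belonged to, so breed and disease cannot be told apart in either breed's comparison with the controls, whereas the paced and control groups were both mongrels. Nothing states that same-group samples came from separate animals, and the p-values measure only the spread between these samples.

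CIAO2B, also known as FAM96B, belongs with CIAO1 and MMS19 to the targeting complex that hands finished iron-sulfur clusters to enzymes of the cytosol and nucleus, among them DNA polymerases and helicases. The clusters start in the mitochondrion, which in heart muscle also needs them for its respiratory complexes. CMTM6 is a membrane protein of the MARVEL family that keeps the immune checkpoint ligand PD-L1 (CD274) at the cell surface, by way of recycling endosomes, and away from breakdown in lysosomes. It is also known to hold the adhesion ligand CD58 at the surface.

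The values are MAS5 signals, a linear intensity scale on which the authors had brought each array to a common mean level. The arrays did not stand alike in other respects. The median signal was 142 to 146 on the control arrays and 132 to 145 on the Boxer arrays, but 207 to 219 on the paced arrays, 160 on Doberman K, 234 on Doberman L and 219 on Doberman R. The GAPDH control transcript was read at its 3' and its 5' end, and the former over the latter, a sign of RNA quality, was 0.967 to 1.09 outside the Dobermans, 1.08 in K, 2.10 in L and 3.62 in R. Many results that rest on the Dobermans, though not all, are therefore also given without L and R. Those values leave K as the only Doberman, which the fit assumes to vary like the other groups. All 10 cardiomyocyte markers listed were measured, and their summed signal was 206000 to 299810 on the control arrays, 211360 to 236590 in the Boxers, 222770 to 436120 in the Dobermans and 180370 to 203740 in the paced dogs. None of the 7 erythroid markers listed was measured here.

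CIAO2B was lowest in the Boxers. On probe set 1602786_at the Boxer signals were 219.7, 268.2, 140.9 and 232.8 in dogs 1 to 4, which gives 215 ± 53.7 (SD, n = 4). The control signals were 1151 in P1, 567.6 in P4 and 781.5 in P9, or 833 ± 295 (SD, n = 3). Every Boxer lay below every control, by a gap from 268.2 to 567.6. The Doberman signals were 490.1 in K, 496.2 in L and 582.4 in R, or 523 ± 51.6 (SD, n = 3). The paced signals were 800.6 in LV01, 758.4 in LV02 and 982.6 in LV04, or 847 ± 119 (SD, n = 3). All Dobermans lay above all Boxers, the paced dogs lay within the range of the controls, and Doberman R overlapped control P4. The order of the group means was thus paced, control, Doberman and Boxer, in which paced and control overlapped, control and Doberman overlapped, and Doberman and Boxer did not. The Doberman arrays were the most alike, with a coefficient of variation of 9.87%, and the control arrays the least, with 35.4%.

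CMTM6 was highest in the Boxers and lowest in the controls. Its control signals were 244.2 in P1, 286.6 in P4 and 365.3 in P9, or 299 ± 61.5 (SD, n = 3). The Boxer signals were 846, 666.2, 1145 and 733.9 in dogs 1 to 4, or 848 ± 212 (SD, n = 4). No Boxer came near the control range, and Boxer 3 stood highest of the 13 arrays. The Doberman signals were 441.8 in K, 639.8 in L and 600.1 in R, or 561 ± 105 (SD, n = 3). The paced signals were 570.5 in LV01, 579.2 in LV02 and 748 in LV04, or 633 ± 100 (SD, n = 3). All 10 arrays of diseased or paced hearts lay above all 3 control arrays, and this held in the deposited values, after quantile normalization and after centring each array on its median. The control arrays are among those on which CMTM6 was chosen, and the share of all genes with this pattern was not counted. In the order Boxer, paced, Doberman and control, Boxer and paced overlapped, paced and Doberman overlapped, and Doberman and control did not. In bulk tissue, fewer cells that carry a transcript and less of it in each cell cannot be told apart.

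**Figure D1:**
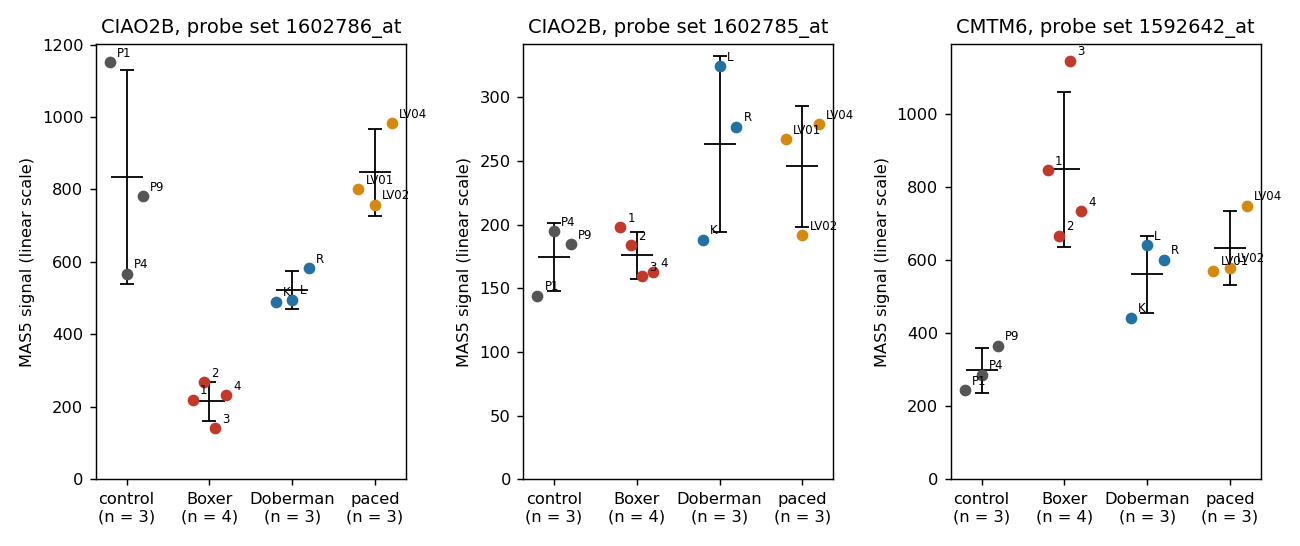
The MAS5 signal (linear scale, from 0) of the 3 probe sets of CIAO2B and CMTM6 on each array, by group; each point is 1 array with its sample name, and the bars are the group mean with the SD. CIAO2B on 1602786_at runs from 140.9 to 268.2 in the Boxers and from 567.6 to 1151 in the controls, CIAO2B on 1602785_at shows no such gap, and CMTM6 on 1592642_at is below 366 in the controls alone.

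The size of these differences is given as the difference of group mean log2(signal + 16) with its standard error (SE) from limma. CIAO2B on 1602786_at was 1.85 ± 0.25 lower in Boxers than in controls, a log2 difference of -1.85 and a ratio of 0.277. This made it the probe set in position 5 of 14302 in the order of Boxer minus control p-values. CMTM6 was 1.44 ± 0.23 higher, a ratio of 2.72, and stood in position 6. Over the 5242 genes, from which the members are not set apart, 0.0191% passed an adjusted p of 0.05 as higher and 0.0382% as lower, and 7.97% lay higher with no overlap of the groups and 9.79% lower. Nothing is read from these shares about the members. The probe set next in that order, with no gene symbol, differed by -1.90 ± 0.32. The next gene in the order was LOC609916, a locus name, at -1.89 ± 0.35, and the next with other names were S100A4 at 2.02 ± 0.38, PPP3CC at 1.00 ± 0.21 and IGFBP2 at 2.62 ± 0.56, so the genes just outside the threshold did not all differ by less than CIAO2B and CMTM6.

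The size of the Boxer difference did not rest on 1 array for either gene. When each sample was left out in turn, CIAO2B stayed between -2.09 and -1.59 and CMTM6 between 1.29 and 1.59. Boxer 3, with the lowest CIAO2B signal and the highest CMTM6 signal of all 13 arrays, moved CIAO2B to -1.68 and CMTM6 to 1.29 when it was left out. Control P1, with the highest CIAO2B and the lowest CMTM6 signal, moved them to -1.59 and 1.32. The place of CMTM6 inside the threshold was less firm than its size. No gene was called higher in Boxer minus control without control P4, Doberman R, any 1 of the paced dogs, or Boxer 1, 3 or 4. The same held after quantile normalization.

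The comparisons that share the control arrays are set side by side. CIAO2B differed from control by -1.85 ± 0.25 in the Boxers, by -0.60 ± 0.27 in the Dobermans and by 0.07 ± 0.27 in the paced dogs. The Doberman value was -0.34 without control P1 and -0.84 without control P4, and the paced value was 0.33 without P1 and -0.17 without P4. CMTM6 differed from control by 1.44 ± 0.23 in the Boxers, by 0.87 ± 0.24 in the Dobermans and by 1.05 ± 0.24 in the paced dogs. In ratios of the fitted means, CMTM6 was 2.72 times its control level in the Boxers, 1.83 times in the Dobermans and 2.07 times in the paced dogs. The groups of Dobermans and controls did not overlap for CMTM6, which 18.3% of the 5242 genes also showed in that direction. The same held for paced and control dogs, with 19.6% of the genes. In Doberman K alone, with L and R left out, CMTM6 differed from control by 0.56 and CIAO2B by -0.69.

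Against the Boxers, the Dobermans had 1.25 ± 0.25 more CIAO2B and 0.57 ± 0.23 less CMTM6 on the log2 scale. The CIAO2B groups did not overlap, as for 18.6% of genes that were higher in Dobermans, and the CMTM6 groups did not overlap either, as for 15.3% of genes that were lower. The CIAO2B difference was 1.16 without L and R, and the CMTM6 difference was -0.89. Against the paced dogs, the Boxers differed by -1.92 ± 0.25 in CIAO2B, with no overlap, as 19.8% of genes did in that direction. For CMTM6 the same difference was 0.39 ± 0.23, and the groups overlapped.

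The tested comparison set the Dobermans against the paced dogs. CIAO2B was lower in every Doberman than in every paced dog, as were 14.8% of the 5242 genes. The log2 difference was -0.68 ± 0.27, with a 95% interval from -1.26 to -0.09 and a ratio of 0.626, and it did not pass the threshold (limma, adjusted p = 0.0813). In the same comparison 13.5% of the genes were called higher and 11.0% lower. After quantile normalization the difference was -0.80 and passed (adjusted p = 0.0357), and on the other settings with the same probe set the adjusted p stayed above 0.05. With only the Dobermans and paced dogs fitted, the difference was -0.68 (limma, adjusted p = 0.138). It was -0.76 with Doberman K alone (adjusted p = 0.184). CMTM6 differed by -0.18 ± 0.24 between Dobermans and paced dogs (limma, adjusted p = 0.62). Its interval, from -0.69 to 0.34, leaves room for a difference in either direction.

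**Figure D2:**
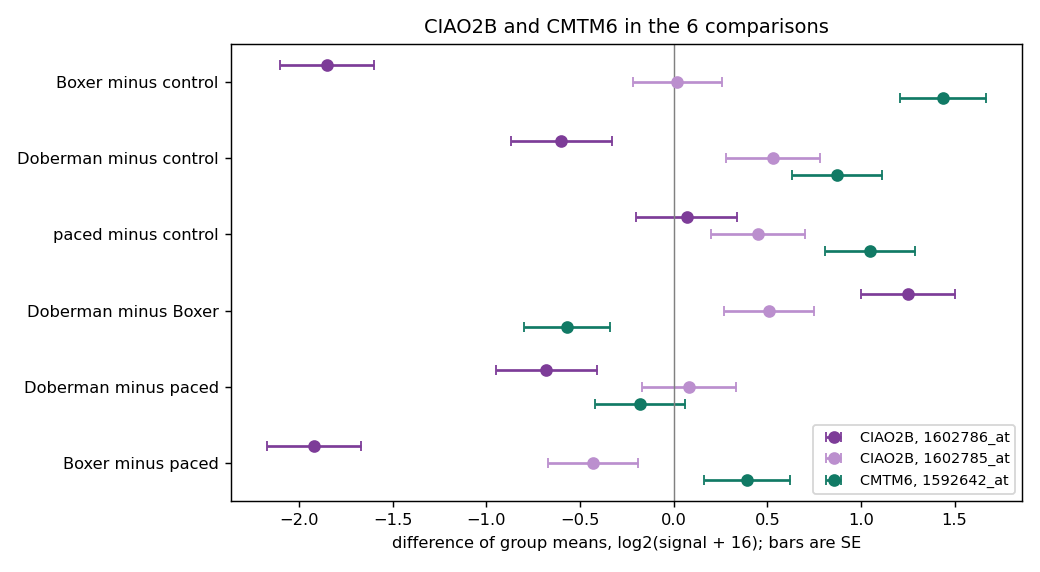
Differences of group means in log2(signal + 16) for the 3 probe sets in the 6 comparisons of groups; points are the fitted differences and bars their SE, and the grey line marks no difference. The Boxer comparisons of CIAO2B on 1602786_at lie at -1.85, -1.92 and, with the Dobermans first, 1.25, while CIAO2B on 1602785_at stays between -0.43 and 0.53.

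The second CIAO2B probe set did not show the Boxer difference. On 1602785_at the control signals were 144.2, 195.1 and 184.6 in P1, P4 and P9, and the Boxer signals were 198.3, 184.1, 159.4 and 162.8 in dogs 1 to 4. The group means were 175 ± 26.9 (SD, n = 3) and 176 ± 18.4 (SD, n = 4), and the log2 difference was 0.02 ± 0.24, in position 13565 of 14302. Its Doberman signals were 188.4, 324.8 and 277 in K, L and R, and its paced signals were 267.2, 191.6 and 279 in LV01, LV02 and LV04. The means of 263 ± 69.2 and 246 ± 47.4 (SD, n = 3 each) lay above the control mean, and the groups overlapped in all 6 comparisons. Between Dobermans and paced dogs this probe set differed by 0.08 ± 0.25 (limma, adjusted p = 0.848), opposite in sign to the first. The annotation assigns the pair to the same gene, but across the 13 arrays they correlated at r = 0.303, and at r = -0.013 once each group's mean was taken off. The low Boxer level of CIAO2B is thus the reading of 1 of its 2 probe sets, and no other measure of the transcript was used here.

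The scaling of the arrays moved some of these values. Because the paced arrays and Dobermans L and R had the highest median signals, centring each array on its median shifted the median of all tested probe sets to -0.45 in paced minus control and -0.25 in Doberman minus control, from 0.06 and 0.19 as deposited. CIAO2B in Boxer minus control was -1.63 after quantile normalization and -1.78 after centring. CMTM6 in that comparison was 1.32 and 1.51. Centring moved CIAO2B to -1.04 in the Dobermans and -0.44 in the paced dogs, each against control, so the sign of the paced difference depended on it. CMTM6 was at 0.43 and 0.54 in the same comparisons and kept its sign.

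**Figure D3:**
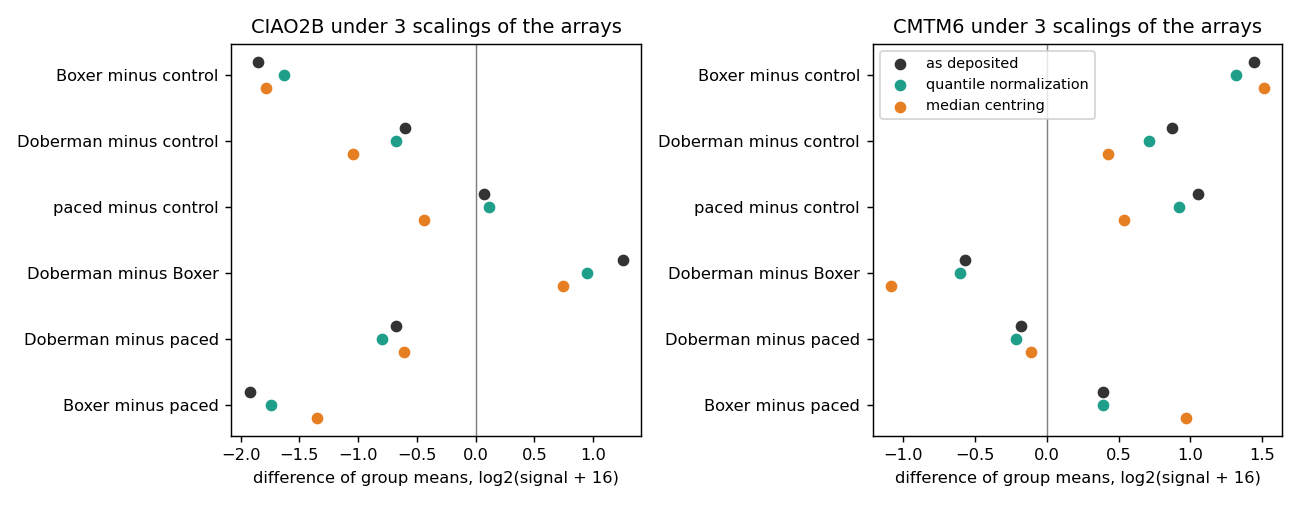
Differences of group means in log2(signal + 16) for CIAO2B (1602786_at, left) and CMTM6 (right) in the 6 comparisons, with the arrays as deposited, quantile normalized or centred on their medians. The Boxer minus control points lie close together, from -1.85 to -1.63 and from 1.32 to 1.51, while the comparisons that set Dobermans or paced dogs against the other groups spread further.

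CIAO2B and CMTM6 moved in opposite directions over the 13 arrays, with r = -0.68, and r = -0.692 without L and R. After each group's mean was taken off, r was -0.436. These values describe arrays that share groups, and both genes had been chosen for a difference between a pair of those groups.

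Other cell types could carry part of either transcript, and their markers are given as summed signals. The macrophage and monocyte markers, 9 of 12 listed, came to 2353 to 4609 on the control arrays and 3595 to 9749 in the Boxers, with 0 of the 9 called in Boxer minus control in limma and 1 at an unadjusted p under 0.05. They came to 2232 to 8916 in the Dobermans and 2677 to 3409 in the paced dogs. By array, these sums were 2804, 4609 and 2353 in P1, P4 and P9, beside CMTM6 signals of 244.2, 286.6 and 365.3. Boxers 1 to 4 had sums of 4947, 3595, 4010 and 9749 and CMTM6 signals of 846, 666.2, 1145 and 733.9. Dobermans K, L and R had sums of 8916, 5876 and 2232 and CMTM6 signals of 441.8, 639.8 and 600.1. Paced LV01, LV02 and LV04 had sums of 2677, 2969 and 3409 and CMTM6 signals of 570.5, 579.2 and 748. The fibroblast markers, 7 of 10, came to 12906 to 20998 in the controls, 18510 to 30824 in the Boxers, 20536 to 30607 in the Dobermans and 14162 to 17214 in the paced dogs, with 0 of the 7 called in Boxer minus control and 3 at an unadjusted p under 0.05. The lymphocyte markers, 5 of 11, came to 898 to 1283, 761 to 1005, 1305 to 2791 and 1474 to 1724 in that order of groups. Their directions differed in the paced dogs, with control and paced means of 356 and 34.6 for CD3E and 108 and 628 for NKG7. The means of CD3D, CD4 and IL2RG were higher in the paced dogs than in the controls. The adipocyte markers, 3 of 6, came to 2388 to 7393, 1928 to 2929, 711 to 2159.5 and 3782 to 8729 in the same order of groups. In Boxer minus control 0 of these 3 were called and 2 had an unadjusted p under 0.05. Their directions differed, with control and Boxer means of 4877 and 1997.5 for LPL and 162 and 382 for ADIPOQ. The smooth muscle and pericyte markers, 4 of 8, came to 9104.5 to 19052, 15690 to 21084, 14453 to 23444 and 7509 to 12529 in the same order. The endothelial markers, 4 of 8, came to 5850.5 to 7560, 5274 to 7695.5, 3961 to 12043 and 4789 to 6100. The neutrophil marker, 1 of 7, came to 147 to 171, 144 to 206, 210 to 535 and 129 to 171. The part of these cell types in the CIAO2B and CMTM6 values was not tested.

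The measured partners of CIAO2B in cytosolic iron-sulfur assembly differed by -0.22 to 0.28 in the Boxers, each read by its probe set of highest mean signal. CIAO2B was chosen on this difference, so nothing is read from its larger value of -1.85. The other CIAO2B probe set, 1602785_at, was at 0.02 ± 0.24. Of 10 listed partners 7 were measured, and 0 of the 7 were called in Boxer minus control in limma, with 0 at an unadjusted p under 0.05. With 0.0191% and 0.0382% of all genes called, a count of 0 in this and the other lists does not set them apart. CIAO2A, the close relative of CIAO2B that serves the iron regulator IRP1, differed by 0.28 ± 0.17 in the Boxers. On that probe set the Boxer signals of 4184 to 4915 overlapped the control signals of 3193 to 4470. A second CIAO2A probe set was at 0.49 ± 0.26, outside the range above, and its groups overlapped too. MMS19, the adaptor of the targeting complex, differed by -0.21 ± 0.14, and its Boxer signals of 1223 to 1365 lay below the control signals of 1427 to 1611. The scaffold proteins NUBP1 and NUBP2, on which cytosolic clusters are first built, differed by -0.22 ± 0.17 and -0.01 ± 0.22. NUBP1 too was lower in every Boxer, at 804.3 to 877.7, than in every control, at 909.6 to 1074, while the NUBP2 groups overlapped. CIAPIN1, which passes electrons to that scaffold, differed by -0.13 ± 0.24. GLRX3, a glutaredoxin that binds clusters, and BOLA2, its partner, differed by -0.02 ± 0.14 and 0.18 ± 0.25. CIAO1 and CIAO3 were not analysed here.

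In the Dobermans 2 of the 7 were called lower against control and 0 higher, where 14.0% of genes were called lower and 11.9% higher. CIAO2A fell by 0.75 on the log2 scale, with an SE of 0.18 (limma, adjusted p = 0.0155). Its Doberman signals of 2725 in K, 1987 in L and 1861 in R all lay below the lowest control, 3193. The call was lost without control P9, at -0.61 (adjusted p = 0.0562), and without L and R, at -0.42 (adjusted p = 0.264). The second CIAO2A probe set rose by 0.90 ± 0.28 in the same comparison (limma, adjusted p = 0.0353), so the pair of CIAO2A probe sets differed in sign. CIAPIN1 fell by 1.19, with an SE of 0.26 (limma, adjusted p = 0.0103), from 1488 ± 151 in the controls to 687 ± 309 in the Dobermans (SD, n = 3 each). Its difference was -0.53 without L and R (adjusted p = 0.154), and its other probe set was at -0.52 ± 0.20 (adjusted p = 0.0673).

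Paced dogs had 0 of the 7 called against control, where 5.11% of genes were called higher and 4.04% lower. Dobermans and Boxers differed in 4 of the 7. NUBP1 was 0.59 ± 0.17 and NUBP2 0.60 ± 0.22 higher in the Dobermans (limma, adjusted p = 0.0204 and 0.0479), against 16.8% of genes called higher. CIAO2A was at -1.03 ± 0.17 and CIAPIN1 at -1.05 ± 0.24 (adjusted p = 0.00305 and 0.00831), against 17.3% called lower. Their other probe sets were at 0.41 ± 0.26 and -0.34 ± 0.19 (adjusted p = 0.232 and 0.158). CIAO2B itself was higher in the Dobermans than in the Boxers, by 1.25 ± 0.25. Without L and R all 4 calls were lost, with NUBP1 at 0.39, NUBP2 at 0.15, CIAO2A at -0.70 and CIAPIN1 at -0.40. Leaving out L or R alone also ended the calls of NUBP1, at 0.56 and 0.52, and of NUBP2, at 0.45 and 0.53. The NUBP2 call was lost in 11 of the 13 cases where 1 sample was left out.

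**Figure D4:**
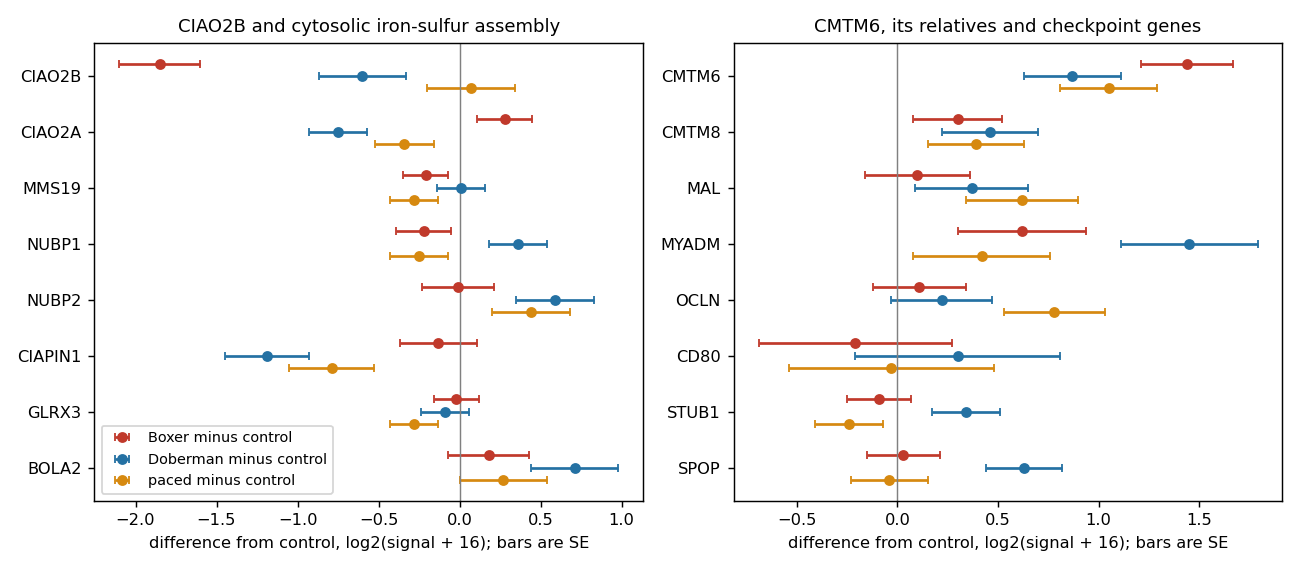
Differences from control in log2(signal + 16), with SE bars, for CIAO2B with 7 genes of cytosolic iron-sulfur assembly (left) and for CMTM6 with 4 relatives and 3 checkpoint genes (right), in Boxers, Dobermans and paced dogs. The Boxer points of the 7 partners on the left lie between -0.22 and 0.28 beside -1.85 for CIAO2B, and those on the right lie between -0.21 and 0.62 beside 1.44 for CMTM6. CIAO2B and CMTM6 were chosen on their Boxer difference, and each gene is shown by its probe set of highest mean signal.

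Of the relatives of CMTM6, 4 of 17 listed genes of the CMTM and MARVEL family were measured, and 0 of the 4 were called in Boxer minus control in limma, with 0 at an unadjusted p under 0.05. CMTM8, the nearest measured gene to CMTM6 on the chromosome and a member of the same family, differed by 0.30 ± 0.22 in the Boxers, 0.46 ± 0.24 in the Dobermans and 0.39 ± 0.24 in the paced dogs. Its Boxer signals of 333.1 to 406.7 overlapped the control signals of 249.8 to 360.7. MAL, a raft protein of myelin and epithelia, differed by 0.10 ± 0.26 in the Boxers and 0.62 ± 0.28 in the paced dogs. OCLN, the tight junction protein occludin, differed by 0.11 ± 0.23 in the Boxers and 0.78 ± 0.25 in the paced dogs (limma, adjusted p = 0.0546). MYADM, a membrane raft protein, differed by 0.62 ± 0.32 in the Boxers and rose by 1.45 ± 0.34 in the Dobermans (limma, adjusted p = 0.0141). The MYADM call was lost without Doberman L, at 1.11 (adjusted p = 0.0561), and without L and R, at 1.01 (adjusted p = 0.221).

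The checkpoint genes that could be measured were 3 of 9. CD80, a ligand of T cell costimulation that also binds PD-L1, differed by -0.21 ± 0.48 in the Boxers. STUB1, a ubiquitin ligase known to target PD-L1 where CMTM6 is absent, differed by -0.09 ± 0.16, and SPOP, another ubiquitin ligase adaptor for PD-L1, by 0.03 ± 0.18. None of the 3 was called in Boxer minus control in limma, and 0 had an unadjusted p under 0.05. SPOP rose in Dobermans against control by 0.63 ± 0.19 (limma, adjusted p = 0.0339), a call lost without P1, P4, P9, L or R, at values from 0.48 to 0.67. PD-L1 and CD58 were not analysed here. In the recycling endosome list, by which CMTM6 and PD-L1 return to the surface, 0 of 8 measured genes of 14 were called in Boxer minus control, with 0 at an unadjusted p under 0.05.

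Over all 8 partner lists 58 genes were measured, the members apart. None was called in Boxer minus control, where 2 had an unadjusted p under 0.05 in limma, and their differences ran from -0.82 to 0.62 with a median of -0.09, beside a median of -0.02 over all genes. The Boxers lay below all controls for 10 of the 58, or 17.2% beside 9.79% of all genes, and above them for 0, beside 7.97%. The 10 were MMS19, NUBP1, NDUFAB1, CDK5RAP1, NDUFS1, NDUFS8, ETFDH, FECH, SLC40A1 and NCOA4. In Doberman minus control 5 were called higher, 8.62% beside 11.9% of all genes, and 22 lower, 37.9% beside 14.0%, with a median of -0.44 beside 0.04 over all genes. The lower ones were mostly mitochondrial, with 9 of 11 measured iron-sulfur proteins of the respiratory chain and related enzymes and 6 of 12 mitochondrial assembly genes. Examples were CISD1, an outer membrane cluster protein, at -2.05 ± 0.46 (limma, adjusted p = 0.0116), ETFDH, which feeds electrons from fat oxidation to the chain, at -1.57 ± 0.24 (adjusted p = 0.00338), and HSPA9, the chaperone of cluster transfer, at -1.57 ± 0.33 (adjusted p = 0.00956). Without L and R, where K is the only Doberman, these were -0.52, -0.87 and -0.52. ETFDH has 5 tested probe sets, CISD1 3 and HSPA9 2, and each gene was read only by the probe set of highest mean signal. The total of 27 called, with 25.9% of all genes called, was 16 without Doberman L (9.01% of all genes), 16 without control P1 (10.1%) and 17 without control P4 (11.6%). With a covariate for the GAPDH end ratio it was 0 (0.763% of all genes), and with only the Dobermans and controls fitted it was 0 (0.153%).

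In paced minus control 2 of the 58 were called, both lower, a share of 3.45% beside 4.04% of all genes, so the count is near the background. These were the cluster scaffold ISCU at -0.57 ± 0.14 (limma, adjusted p = 0.023) and the cluster carrier GLRX5 at -0.61 ± 0.15 (adjusted p = 0.0184). Without each paced dog, or without control P4, neither was called, and ISCU was not called without P1 either. Their values then ran from -0.59 to -0.52 for ISCU and from -0.64 to -0.52 for GLRX5. The number called in this comparison was 0 to 10 with 1 sample left out, while 4.01% to 19.8% of all genes were called.

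In Doberman minus paced, the comparison in which CIAO2B and CMTM6 were tested, 7 of the 58 partners were called higher, 12.1% beside 13.5% of all genes, and 10 lower, 17.2% beside 11.0%. The share called higher is thus near the background. The 7 were NUBP1, FDX2, FDXR, LIAS, MYADM, STUB1 and SPOP. FDX2 and FDXR, the ferredoxin and its reductase that supply electrons to mitochondrial cluster assembly, rose by 1.40 ± 0.22 and 2.09 ± 0.39 (limma, adjusted p = 0.00126 and 0.00302). FDXR reached the filter on low signal only through the Dobermans, with paced signals of 49.1 to 90.1 under the filter signal of 108. It was thus tested only through the group in which it was high, and the size of its difference is uncertain. LIAS, the iron-sulfur enzyme of lipoic acid synthesis, rose by 1.86 ± 0.31 (adjusted p = 0.00181). FECH, which makes haem, was at -1.01 ± 0.21 (adjusted p = 0.00519), and FBXL5, the iron-sensing ubiquitin ligase subunit, at -1.26 ± 0.27 (adjusted p = 0.00572). These last 5 calls were kept with each of the 13 samples left out in turn, and the other 12 were lost without at least 1 sample. FECH has 7 tested probe sets and FBXL5 has 2, and each gene was read only by the probe set of highest mean signal. NUBP1 lost its call without L, R, LV01 or LV02 (adjusted p up to 0.113), STUB1 and SPOP without R, LV02 or LV04 (up to 0.0764 and 0.0926), and MYADM without any of 8 samples (up to 0.164). Without L and R, where K is the only Doberman, FDX2, FDXR, LIAS, FECH and FBXL5 were at 1.21, 1.83, 1.63, -0.61 and -0.50. With the GAPDH ratio as a covariate 2 of the 17 stayed called, FDX2 and LIAS, and 6.43% of all genes were called. With only the Dobermans and paced dogs fitted 3 did, FDX2, FDXR and LIAS, and 3.05% of all genes were called. The remaining genes called lower were NDUFAB1, DPH2, NDUFS1, NDUFS8, NDUFV2, ETFDH, CISD1 and NCOA4, at -1.65 to -0.60. DPH2 among them reached the filter only through the paced dogs, the group in which it was high. The total of 17 ranged from 6 without paced LV02 to 32 without Doberman K, where 14.3% and 43.8% of all genes were called. It was 9 without L, 7 without R, 9 without LV01 and 8 without LV04.

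The genes nearest to CIAO2B and CMTM6 in the dog assembly UU_Cfam_GSD_1.0 are given beside the members. This gene order carries no coordinates here. The 3 nearest measured genes on each side were KCTD19, TMEM208, CES2, CDH16, NAE1 and DYNC1LI2 for CIAO2B and ULK4, SEC22C, HIGD1A, CMTM8, TGFBR2 and OXSM for CMTM6. In Boxer minus control 0 of the 6 were called around CIAO2B, with differences from -0.91 to 0.33, and 0 of 6 around CMTM6, with differences from -0.47 to 0.81, and 0 of the 12 had an unadjusted p under 0.05 in limma. So few of all genes were called there (0.0191% and 0.0382%) that this count says nothing of the neighbours. SEC22C and TGFBR2, both beside CMTM6, were higher in every Boxer than in every control, as were 7.97% of all genes, and the groups overlapped for the other 10. CES2, a carboxylesterase directly next to CIAO2B in the annotation, had the largest of the negative values, -0.91 ± 0.53. Its control signals were 465.5 in P1, 105.7 in P4 and 223.7 in P9, and its Boxer signals, 180.1, 79.6, 119.4 and 92.5 in dogs 1 to 4, overlapped them. P1 was thus highest for CES2 as for CIAO2B among the controls, and Boxer 3, lowest for CIAO2B, was not lowest for CES2. In Doberman minus control CES2 was at -2.04 ± 0.57 (limma, adjusted p = 0.0238), a call lost without control P9, Doberman L or Doberman R, and CIAO2B at -0.60 ± 0.27. CES2 reached the filter only through the controls, and its Doberman signals, 17.5 to 85.9, lay under the filter signal of 108, so the size of its difference is uncertain. In that comparison CES2 was at -1.24 without L and R together (adjusted p = 0.401). Around CIAO2B in the Dobermans, KCTD19 rose by 0.98 ± 0.31 and NAE1 was at -0.89 ± 0.30 against control (limma, adjusted p = 0.0368 and 0.0446), and around CMTM6 HIGD1A was at -1.64 ± 0.48 (adjusted p = 0.0291). These calls, too, were lost without L and R, at 0.25, -0.39 and -0.20, and each was also lost without any single control or without Doberman L. SEC22C, a vesicle trafficking protein, rose by 0.73 ± 0.21 in the paced dogs (limma, adjusted p = 0.0359), the same direction as CMTM6 at 1.05 ± 0.24, and its call was lost in 10 of the 13 cases with 1 sample left out (0.62 to 0.83 over all 13). TGFBR2, a receptor of the TGF-beta pathway, had the largest of the positive values around CMTM6, 0.81 ± 0.41 in the Boxers.

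The genes most like each member were ranked by Pearson's r of log2(signal + 16) over the 13 arrays among 5241 other genes. The ranking includes the arrays on which the members were chosen, so it is a description and carries no test. CIAO2B was most like FLOT2, ECM2, WWP2, ZMYM3 and MPPE1, with r from 0.825 to 0.858. After each group's mean was taken off, r was 0.582 for FLOT2, 0.443 for ECM2, 0.439 for WWP2, 0.052 for ZMYM3 and -0.204 for MPPE1. FLOT2, a membrane raft scaffold protein, had signals of 1564 ± 328 in the controls, 1025 ± 176 in the Boxers, 1563 ± 259 in the Dobermans and 2229 ± 272 in the paced dogs (SD, n = 3, 4, 3 and 3). Its Boxer signals, from 770.5 in Boxer 3 to 1146 in Boxer 1, lay below all others, and Boxer 3 was lowest as for CIAO2B. FLOT2 was picked for its likeness to CIAO2B, and the share of all genes with this pattern was not counted. WWP2, a ubiquitin ligase, correlated at r = 0.851 as deposited and at 0.246 after quantile normalization.

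Clathrin genes ran most opposite to CIAO2B in the deposited values. CLTA, a clathrin light chain, had r = -0.931, and CLTC, the heavy chain, had r = -0.918. CLTA signals were 2812 to 3223 in the Boxers, 1735 to 2224 in the controls, 2237 to 2659 in the Dobermans and 1992 to 2294 in the paced dogs. Boxer 3 was highest for CLTA and control P1 lowest, the mirror image of their CIAO2B ranks. After quantile normalization r was -0.785 for CLTA and -0.635 for CLTC, and after each group's mean was taken off it was -0.726 and -0.664. In Boxer minus control CLTA differed by 0.53 ± 0.15, beside -1.85 ± 0.25 for CIAO2B, which was chosen on that difference. S100A4, a calcium-binding protein that marks fibroblasts and leukocytes, came next at r = -0.831. After quantile normalization it was at -0.84, more opposite than CLTA and CLTC, and at -0.359 after each group's mean was taken off.

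CMTM6 was most like CPSF2, NCOA2, CCNC, EBF1 and TMEM62, with r from 0.80 to 0.931. CPSF2, a subunit of the messenger RNA 3' end cleavage complex, had signals of 622 ± 46.8 in the controls, 869 ± 62.4 in the Boxers, 745 ± 86.3 in the Dobermans and 808 ± 46.6 in the paced dogs (SD, n = 3, 4, 3 and 3). Boxer 3 was highest and control P1 lowest for CPSF2, as for CMTM6. NCOA2, a nuclear receptor coactivator, had signals of 664 ± 230, 1178 ± 127, 1166 ± 157 and 969 ± 67.4 in the same order. Most opposite were CACNB2, a subunit of the cardiac calcium channel, at r = -0.87, DENND5B at -0.844 and TBC1D8 at -0.797. CACNB2 signals were 515.9 to 615.1 in the controls and 305.9 to 368.5 in the Boxers, 365.5 to 481.6 in the Dobermans and 313.9 to 382 in the paced dogs, so all 10 diseased or paced arrays lay below all 3 controls. CACNB2 was picked for running opposite to CMTM6, which has the mirror pattern. The share of all genes lying below the controls in this way was not counted.

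The names on these lists depended on the measure. Of the 5 genes most like CIAO2B, 4 stayed among the first 5 after quantile normalization, 1 without L and R and 0 with Spearman's rho. For CMTM6 3 stayed after quantile normalization, 2 without L and R and 2 with Spearman's rho, and CPSF2 was first in all 3 of these rankings.

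**Figure D5:**
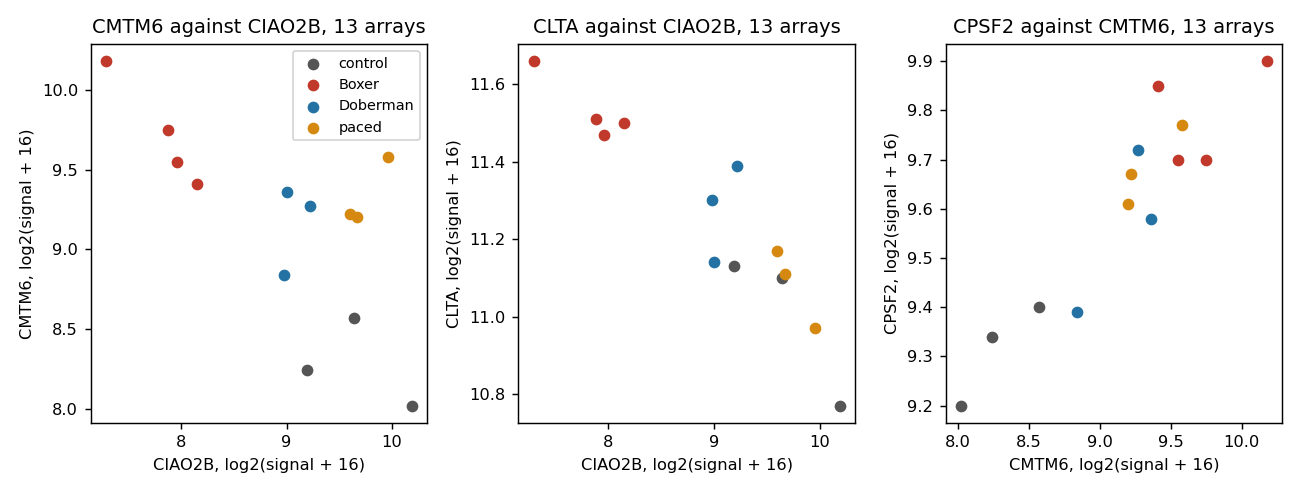
Log2(signal + 16) on each of the 13 arrays for CMTM6 against CIAO2B (left), CLTA against CIAO2B (middle) and CPSF2 against CMTM6 (right), coloured by group. The r values are -0.68, -0.931 and 0.931, and the 4 Boxer arrays lie at the low end of CIAO2B, with control P1 and paced LV04 at its high end.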

How the data were processed

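RNA was isolated with Trizol and RNeasy cleanup and labelled with biotin by the standard Affymetrix single-cycle method, per the labels' protocols. The deposited values are MAS5 signal intensities, a linear scale made by the authors from the scanned arrays, per the submitters' processing notes. No version of MAS5 is given in the sources used here. The 2% trimmed mean of each array was 500.06 to 500.08. Depth is not defined for arrays, and their number limits the precision. After 77 control probe sets were set aside, values were analysed as log2(signal + 16), and a probe set was kept where its mean reached the 40th percentile of all means, which was 6.95 or a signal of 108. The annotation gave 10549 probe sets 1 symbol, 138 several and 13149 none. Each gene was represented by its tested probe set of highest mean signal. All 13 arrays were fitted with 1 mean per group in limma 3.58.1 (R 4.3.3) with an intensity trend, 9 residual degrees of freedom and Benjamini-Hochberg adjustment over all tested probe sets. Calls use an adjusted p of 0.05.

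The members and the lists were chosen with earlier results of these data known. Named are both members with all their probe sets, every measured gene of the cytosolic assembly, CMTM family and checkpoint lists, the genes of other partner lists called in Boxer minus control or Doberman minus paced and up to 3 of the largest called changes elsewhere, the 3 nearest measured genes on each side and the 5 most like and 3 most opposite genes. Other partner genes that differed between Dobermans and Boxers, or whose Boxer and control signals did not overlap, were named after their values were seen. The alternatives were each sample left out, L and R left out, the other probe set, a pseudocount of 1 or 64, no filter or one at the 70th percentile, quantile normalization, centring on the array median, a fit of the compared groups alone, array weights, and a covariate for the GAPDH end ratio. The fit was tested on simulated data. Figures were drawn with matplotlib.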

Additional observations from a re-analysis of the deposited data

Results flagged for a closer look

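Among 90 groups of 4 Boxer signals that were examined, 7 had 1 dog far from the other 3, with a gap to the nearest dog above Dixon's 95% critical share of the group's range on the log2 scale. Chance flags about 1 in 20 groups. No probe set of CIAO2B or CMTM6 was among them. Boxer 1 stood high for DPH2, an enzyme of diphthamide synthesis, with a signal of 220.4 against 123.8 to 136.3 (a share of 0.837), and for CD80, with 122.8 against 84.5 to 89.8 (0.841). Boxer 2 stood high for SPOP, with 896 against 737.1 to 748.8 (0.919). Boxer 4 stood low for STUB1, with 1657 against 1783 to 1793 (0.93), and for NFS1, the desulfurase that supplies sulfur, with 2203 against 2309 to 2314 (0.954). It stood high for 2 neighbours of CMTM6, HIGD1A with 6839 against 5177 to 5404 (0.846) and TGFBR2 with 4327 against 2518 to 2755 (0.834).

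Dobermans and Boxers differed in a test of the breed difference itself (limma, adjusted p under 0.05) for 31 of the 58 partner genes and 6 of the 12 neighbours. Of the partners 15.5% were called higher and 37.9% lower, beside 16.8% and 17.3% of all genes, so the share called higher is near the background. The neighbours are too few for their count to be set apart from these shares. The genes called are given as log2 differences of Dobermans minus Boxers. In mitochondrial cluster assembly these were NDUFAB1 at -0.88, FDX2 at 0.85, FDXR at 1.47, ISCU at -0.38, GLRX5 at -0.89, NFS1 at -0.67, HSPA9 at -1.42 and NFU1 at -0.52. FDXR was tested only through the Dobermans, the group in which it was high. Its Boxer signals were 44.8 to 191.1, and the size of its difference is uncertain. Among cluster-carrying enzymes the called genes were DPH2 at -1.30, NDUFS1 at -1.17, NDUFS8 at -0.84, NDUFV2 at -0.97, ETFDH at -1.25, LIAS at 1.19, FECH at -0.85, CISD1 at -2.09, CDK5RAP1 at 1.01, SDHB at -0.75, NDUFV1 at -0.96 and UQCRFS1 at -0.68. In cytosolic assembly they were NUBP1 at 0.59, NUBP2 at 0.60, CIAO2A at -1.03 and CIAPIN1 at -1.05, whose other probe sets were at 0.41 and -0.34 and not called. The iron genes FBXL5, NCOA4 and TFRC differed by -1.39, -1.48 and -1.80, the endosome genes RAB11B and VPS26A by 0.66 and -1.01, and the ubiquitin ligase genes STUB1 and SPOP by 0.43 and 0.60. Of the neighbours of CIAO2B, KCTD19 differed by 1.34, CDH16 by 1.16, NAE1 by -0.88 and DYNC1LI2 by -1.09, and of those of CMTM6, ULK4 by 0.87 and HIGD1A by -1.72. With L and R left out, NDUFS8 and GLRX5 stayed called among these, at -0.63 and -0.80, where K is the only Doberman and is assumed to vary like the other groups. With the GAPDH ratio as a covariate 0 of the 31 partner genes stayed called, and 0.42% of all genes were called.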

How the results depend on the processing

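CIAO2B in Boxer minus control kept its sign and stayed within the spread of replicates on 23 of 24 alternatives, and was 0.02 on the other probe set. With 1 sample left out it was -2.09 to -1.59. CMTM6 there was 1.29 to 1.59 on all 23 of its alternatives. On the other probe set CIAO2B was 0.53 in Doberman minus control, 0.45 in paced minus control, 0.51 in Doberman minus Boxer and -0.43 in Boxer minus paced. In the same comparisons CIAO2B on its first probe set, 1602786_at, was -0.60, 0.07, 1.25 and -1.92 as deposited. Median centring moved these values of 1602786_at to -1.04, -0.44, 0.74 and -1.35, and moved CMTM6 to 0.43, 0.54, -1.08 and 0.97. Without L and R, CMTM6 was 0.56 in Doberman minus control and -0.89 in Doberman minus Boxer. Of the 5 most alike genes, 0 for CIAO2B and 2 for CMTM6 were shared with Spearman's rho, 1 and 2 without L and R, and 4 and 3 after quantile normalization. CIAO2B in Doberman minus paced was -0.80 and called after quantile normalization, 0.08 on the other probe set, and -0.75 to -0.57 with 1 sample left out (adjusted p = 0.0641 to 0.219). CMTM6 in Doberman minus paced was not called on any of its 23 alternatives, at -0.49 to -0.02. Counts of called partner genes, in the order Boxer minus control (0 as reported), Doberman minus control (27), paced minus control (2), Doberman minus Boxer (31) and Doberman minus paced (17), depended on the setting. They were 1, 4, 19, 2 and 6 without L and R, and 0, 0, 12, 0 and 2 with the GAPDH ratio as a covariate. With only the compared groups fitted they were 0, 0, 16, 18 and 3, beside 0.229%, 0.153%, 21.7%, 13.4% and 3.05% of all genes. With array weights they were 1, 28, 16, 30 and 20, beside 1.98%, 27.7%, 26.6%, 33.9% and 25.1%. With median centring they were 0, 27, 27, 29 and 10, beside 0.0572%, 29.7%, 31.7%, 41% and 22.2%. With no filter they were 0, 23, 5, 27 and 16, beside 0.0572%, 21%, 11%, 30.5% and 24.8%. With 1 sample left out they were 0, 16 to 36, 0 to 10, 20 to 39 and 6 to 32. The shares of all genes called then ran from 0.0383% to 0.0958%, 9.01% to 49.1%, 4.01% to 19.8%, 15.8% to 54% and 14.3% to 43.8%. The causes were not tested. The calls of single named genes, 89 in all, gave 2033 values under the alternatives. Of these 1450 stayed called in the same direction, 576 lost the call and 7 reversed. The reversed ones were NDUFS1 in Doberman minus paced at 0.06 and UQCRFS1 and VPS26A in Doberman minus Boxer at 0.00 and 0.17 with the GAPDH ratio, UQCRFS1 and VPS26A at 0.10 and 0.23 and NCOA4 in Doberman minus paced at 0.07 without L and R, and STUB1 in Doberman minus Boxer at -0.08 with median centring. No paired analysis was possible because the groups share no replicate numbers. The filter acts on a probe set's mean, so single signals under 108 are described, and 4 of the 58 partners (FDXR, DPH2, CD80 and SNX27) and 1 of the 12 neighbours (CES2) reached it only through their highest group.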
